A study of Homo sapiens with 12 samples.

Results

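The genes described here are 55 nucleolar factors of ribosome biogenesis, chosen by name from the 23434 genes of a table of nascent RNA counts, each matched by its Entrez identifier and followed over all 4 conditions of the experiment. They comprise 6 box C/D snoRNP proteins and abundant nucleolar proteins (NCL, NPM1, FBL, NOP56, NOP58, NOLC1), 4 box H/ACA snoRNP proteins (DKC1, NHP2, NOP10, GAR1), 14 factors of the SSU processome and 90S particle (RRP9, UTP4, UTP14A, UTP15, UTP20, DCAF13, WDR43, WDR75, WDR3, HEATR1, NAT10, NOP14, NOC4L, DDX10), 6 factors of late 40S maturation (PNO1, TSR1, BYSL, LTV1, RRP12, NOP9), 22 factors of 60S maturation (BOP1, PES1, WDR12, NOP2, NOP16, RRP1, RRP1B, RRS1, BRIX1, GNL2, GNL3, PPAN, NIP7, MRTO4, MAK16, EBNA1BP2, NOC2L, NOC3L, URB2, DDX18, DDX27, DDX56) and 3 nucleolar proteins linked to transcription (DDX21, MYBBP1A, LYAR). All libraries came from U2OS-MycER cells, derived from a human osteosarcoma and expressing Myc as a chimera with the ligand-binding domain of the estrogen receptor, so that 4-hydroxytamoxifen (OHT) activates Myc. The cells had been infected with virus for a non-targeting shRNA (shNT) or an shRNA against the kinase CDK12 (shCDK12), and all of them received doxycycline at 1 µg/mL to switch the shRNA on. Each shRNA was studied without OHT and with 300 nM OHT for 40 h, in 3 libraries per group and 12 in all. All groups were held in mitosis with 100 ng/mL nocodazole for 8 h, collected by shake-off and released for 12 h, and 5-ethynyl-uridine (EU) at 0.5 mM was present for the last 2 h. RNA made during this pulse was coupled to biotin, captured and sequenced (EU-seq), starting from 40 µg of human RNA to which 10 µg of labelled mouse RNA had been added. The labels do not say whether the replicates were separate cultures or infections, nor how many shRNAs against CDK12 were used. The p-values therefore measure the spread between these libraries, which may be technical.

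The nucleolus is the compartment in which RNA polymerase I transcribes ribosomal DNA and in which the resulting pre-rRNA is modified, cut, folded and assembled with ribosomal proteins. Box C/D snoRNPs guide 2′-O-methylation and box H/ACA snoRNPs guide pseudouridylation of the pre-rRNA, the SSU processome assembles on its 5′ part to form the small subunit, and further sets of helicases, GTPases and scaffold proteins mature the small and the large subunit. The genes for these factors are transcribed by RNA polymerase II, and many of them are textbook targets of Myc.

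Promoter sequence was looked at because Myc binds the E-box CACGTG, which reads the same on both strands. RefSeq (GRCh38.p14) gave the 250 bases upstream of the start for 45 of the 55 factors, and 6 of these (EBNA1BP2, NAT10, UTP20, NOP10, UTP4 and UTP14A) hold the E-box (13.3%), against 9.08% of the promoters of 9088 genes tested and 6.34% of all 35116 promoters. The related letters CACGCG, searched on both strands, were in 22.2%, 16.1% and 9.72% of these sets. The sequences of 4 factors with it show where the E-box lies, near the start in NAT10 (positions -15 to -10) and UTP20 (-10 to -5), far upstream in EBNA1BP2 (-237 to -232), and at -170 to -165 and -11 to -6 in NOP10. The sequences run 5′ to 3′ on the gene's strand with the E-box in capitals and end just before the start, at chr11:34105379-34105628 (+ strand), chr12:101279855-101280104 (+ strand), chr1:43172571-43172820 (- strand) and chr15:34343137-34343386 (- strand).
NAT10: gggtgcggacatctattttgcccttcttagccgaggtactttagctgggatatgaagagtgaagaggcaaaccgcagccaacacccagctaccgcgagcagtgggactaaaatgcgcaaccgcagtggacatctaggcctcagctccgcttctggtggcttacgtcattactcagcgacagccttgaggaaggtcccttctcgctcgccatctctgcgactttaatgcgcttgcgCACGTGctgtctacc
UTP20: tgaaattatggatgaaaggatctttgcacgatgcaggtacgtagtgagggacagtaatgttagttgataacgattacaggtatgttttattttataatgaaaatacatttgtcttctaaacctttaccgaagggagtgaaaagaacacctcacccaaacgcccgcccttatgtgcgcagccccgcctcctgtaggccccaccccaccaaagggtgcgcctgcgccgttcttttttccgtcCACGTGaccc
EBNA1BP2: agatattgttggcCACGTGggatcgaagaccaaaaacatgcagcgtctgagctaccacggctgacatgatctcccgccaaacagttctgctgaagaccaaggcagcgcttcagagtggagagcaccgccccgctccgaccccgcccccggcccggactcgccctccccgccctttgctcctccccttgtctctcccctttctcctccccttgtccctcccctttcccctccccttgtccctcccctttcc
NOP10: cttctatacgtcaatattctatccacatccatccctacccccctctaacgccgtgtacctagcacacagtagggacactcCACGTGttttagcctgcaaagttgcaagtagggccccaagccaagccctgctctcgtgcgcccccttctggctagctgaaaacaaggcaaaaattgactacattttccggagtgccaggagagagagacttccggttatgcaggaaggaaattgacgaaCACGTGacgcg

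Total counts per library ran from 1928373 to 5227279 in shNT, from 1251695 to 3666406 in shNT+OHT, from 4142570 to 9400045 in the shCDK12-labelled libraries and from 5378438 to 10447836 in the shCDK12+OHT-labelled ones, so the shNT arm was the shallower. The mouse RNA has no rows in the table, and a change of the total amount of nascent RNA cannot be seen. In such bulk samples fewer cells of a type and less RNA per cell cannot be told apart. Of 8 mesenchymal and osteoblast markers, VIM, FN1, COL1A1, SPARC and RUNX2 were detected in every library, each at a CPM (library-size-scaled count) of 35.2 or more, whereas COL1A2 and TWIST1 stayed at or below 1.16 CPM and ALPL at or below 8.02 CPM. The summed level of the 8 moved with the groups, from 1505 to 1581 CPM in shNT and 1003 to 1105 CPM in shNT+OHT to 405 to 414 CPM in the shCDK12-labelled libraries and 566 to 583 CPM in the shCDK12+OHT-labelled ones. FN1, for fibronectin, went with it, at 653 to 669 CPM in shNT, 310 to 393 CPM in shNT+OHT, 35.2 to 41.0 CPM in the shCDK12-labelled libraries and 88.1 to 108 CPM in the shCDK12+OHT-labelled ones. The epithelial markers EPCAM, CDH1 and KRT5 summed to 14.3 to 15.5 CPM in the shCDK12-labelled libraries and to 9.52 to 12.8 CPM in the other groups, with EPCAM at 6.66 to 9.55 CPM against at most 2.85 CPM. The defining haematopoietic and endothelial markers PTPRC, CD3E, PECAM1 and CDH5 stayed at or below 1.39 CPM. The part of these marker differences in the values of the factors was not tested.

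The nascent RNA of the targeted gene was not lower under every shCDK12 label. CDK12 was at 323, 289 and 300 CPM in the 3 shNT libraries and at 293, 277 and 298 CPM in the shCDK12-labelled ones, with a log2 fold change of -0.04 (standard error 0.085, adjusted p = 0.726, edgeR's quasi-likelihood test, adjusted by Benjamini-Hochberg). The groups overlapped. It was at 434, 356 and 400 CPM in shNT+OHT and at 215, 208 and 218 CPM in the shCDK12+OHT-labelled libraries, lower by a log2 fold change of -0.89 (standard error 0.11, edgeR adjusted p = 9.25e-05). CDK12 was thus lowest in the shCDK12+OHT-labelled libraries, and the shCDK12-labelled ones had no called loss of it. These values are of RNA made during the EU pulse. Mature CDK12 RNA and CDK12 protein are not in these data, so the values alone cannot settle the labels. The CPM of MYC was 2093 ± 112 in shNT and 1967 ± 248 in shNT+OHT, compared with 1124 ± 89.8 in the shCDK12-labelled libraries and 2062 ± 53.5 in the shCDK12+OHT-labelled ones (SD, n = 3). Whether RNA of the MycER chimera is counted under MYC was not tested. Whether the labels of the shCDK12 arm name the right libraries was not tested, so its groups are given as labelled throughout, and every direction drawn from them rests on those labels.

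Summed over the 55 factors, nascent RNA made up 0.749, 0.771 and 0.724% of the CPM in the shNT libraries and 1.08, 1.11 and 1.12% in shNT+OHT. In the shCDK12-labelled libraries the sum was 1.06, 1.06 and 1.04%, and in the shCDK12+OHT-labelled ones it was 0.684, 0.722 and 0.723%. The shNT+OHT libraries and the shCDK12-labelled ones were therefore high, the shNT libraries and the shCDK12+OHT-labelled ones were low, and the high and the low libraries did not overlap. By group means, 29 factors were highest in shNT+OHT and 24 in the shCDK12-labelled libraries, while 29 were lowest in the shCDK12+OHT-labelled ones and 25 in shNT. The most frequent order, held by 16 factors, was shNT+OHT, labelled shCDK12, shNT, labelled shCDK12+OHT from high to low, and 14 factors had the order labelled shCDK12, shNT+OHT, labelled shCDK12+OHT, shNT. Neighbouring groups in these orders were not all apart. Both high groups overlapped for NCL, with 936, 879 and 925 CPM in shNT+OHT against 961, 846 and 893 CPM in the shCDK12-labelled libraries.

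**Figure D1:**
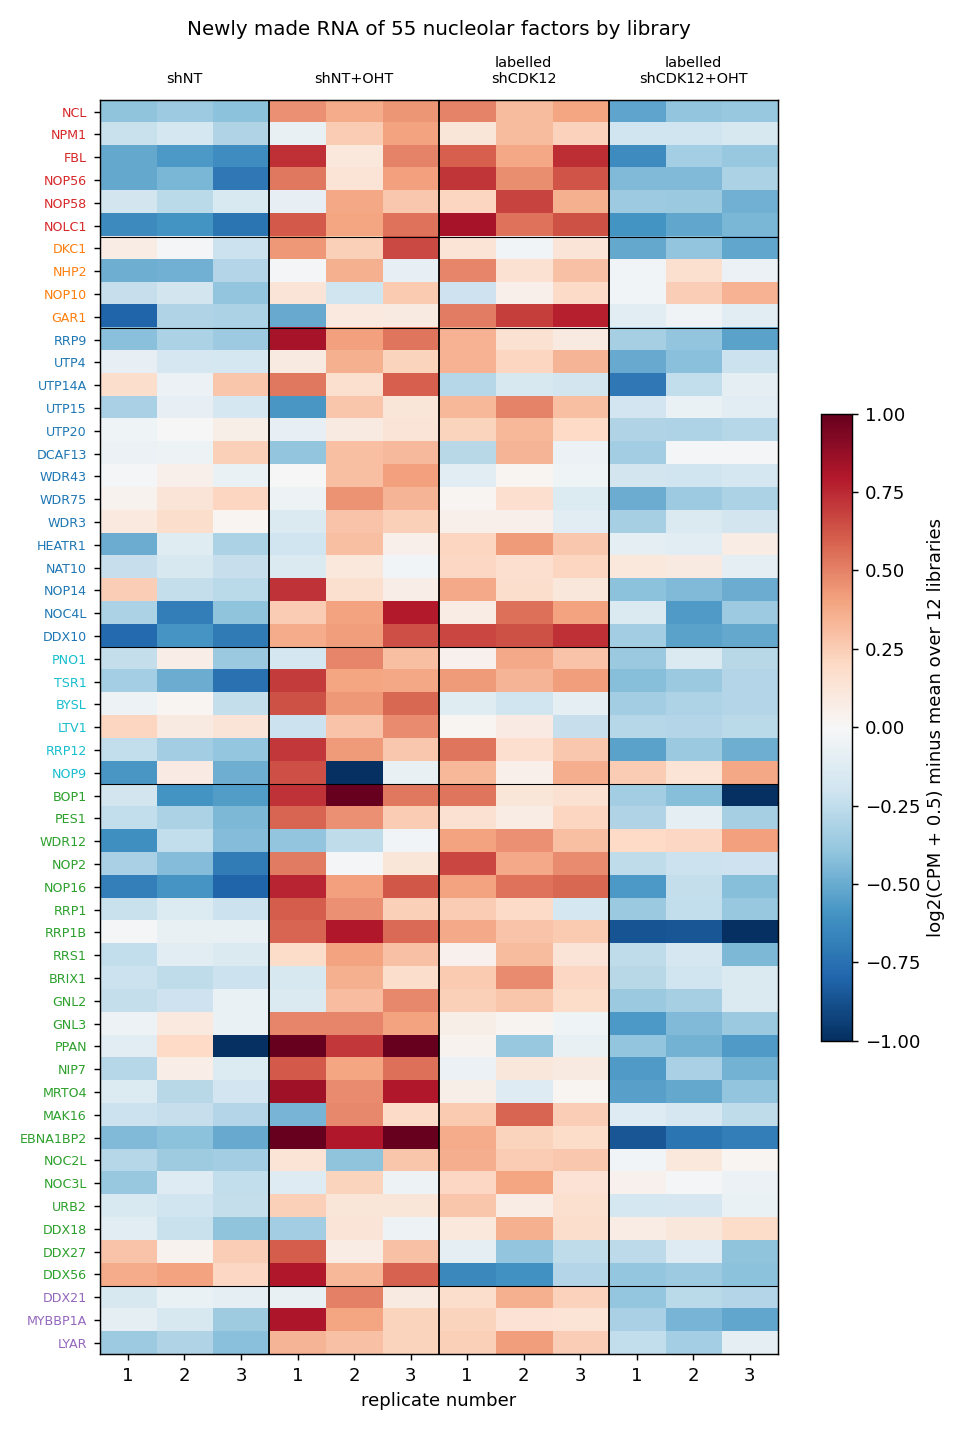
Each row is 1 of the 55 factors, coloured by role in its name, and each column is 1 of the 12 libraries in their 4 groups. The colour gives log2(CPM + 0.5) minus the mean of that gene over the 12 libraries, and colours saturate at both ends of the bar. Most rows are red in shNT+OHT and in the shCDK12-labelled libraries and blue in the other groups, and DDX56 and DDX27 are blue in both groups of the shCDK12 arm.

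MycER activation in shNT cells was followed by higher nascent RNA of 26 of the 54 factors tested and lower nascent RNA of 0 (edgeR's quasi-likelihood test, adjusted by Benjamini-Hochberg over all genes, threshold 0.05), where 17.9% of all 9954 genes tested were called, 9.39% higher and 8.54% lower. All 54 log2 fold changes were above 0, with a median of 0.41 against -0.03 over all genes tested. In 32 of the 54 factors the 3 shNT+OHT libraries all lay above the 3 shNT libraries, against 17.2% of all genes. PPAN, a factor of 60S maturation with 4 to 51 counts per library, passed the filter on low counts only in the comparison of the arms with OHT.

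Among the box C/D and abundant nucleolar proteins 5 of 6 rose. NOLC1, a chaperone of snoRNPs, went from 240, 248 and 226 CPM in shNT to 574, 492 and 546 CPM in shNT+OHT, a log2 fold change of 1.17 (standard error 0.11, adjusted p = 1.1e-05). FBL, the fibrillarin methyltransferase of box C/D snoRNPs, went from 64.2, 61.5 and 59.6 to 152, 99.0 and 130 CPM, a log2 fold change of 1.05 (standard error 0.17, adjusted p = 0.000946). The groups did not overlap for either gene, and shNT+OHT replicate 2 was the lowest treated library for both. NOP56, a core protein of the same particles, rose by 0.93 and NCL, the RNA-binding protein nucleolin, by 0.81 on the log2 scale. NPM1, nucleophosmin, was at 296, 305 and 280 CPM in shNT and at 328, 411 and 455 CPM in shNT+OHT, with a log2 fold change of 0.43 (adjusted p = 0.0286). NOP58, the partner of NOP56, lay above its controls in all treated libraries but had a log2 fold change of 0.39 (standard error 0.15) and an adjusted p of 0.0782. Of the 4 box H/ACA proteins the pseudouridine synthase DKC1 rose, by 0.50 (adjusted p = 0.0202), while the small core protein GAR1 had a log2 fold change of 0.37 with a standard error of 0.24 (adjusted p = 0.319) on 47 to 150 counts per library of this fit.

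The factors of the small subunit included called and uncalled genes. Of the 14 SSU processome and 90S factors 3 rose (RRP9, NOC4L and the helicase DDX10). HEATR1, the scaffold also known as UTP10, stood at 0.35 on the log2 scale (adjusted p = 0.127), and at 0.55 (adjusted p = 0.0029) once trends in gene length and GC content were removed. The RNA acetyltransferase NAT10 stood at 0.17 (adjusted p = 0.498) and UTP20 at 0.04 (standard error 0.16, adjusted p = 0.886). UTP20 was at 63.0, 64.8 and 67.7 CPM in shNT and at 61.4, 69.3 and 71.0 CPM in shNT+OHT, and its groups overlapped. Of the 6 late 40S factors TSR1, BYSL and RRP12 rose. BYSL, the bystin protein of 40S assembly, went from 206, 217 and 181 to 332, 289 and 318 CPM, a log2 fold change of 0.63 (adjusted p = 0.00236). RRP12, which takes part in subunit export, rose by 0.81 (adjusted p = 0.00247).

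Of the 21 factors of 60S maturation tested, 12 rose, among them the largest changes of all factors. EBNA1BP2, an assembly factor of the large subunit, went from 97.4, 99.3 and 93.2 CPM to 270, 231 and 272 CPM, a log2 fold change of 1.41 (standard error 0.12, adjusted p = 8.6e-06). NOP16 followed with 1.30 (standard error 0.13, adjusted p = 2.25e-05). BOP1 forms the PeBoW complex with PES1 and WDR12. It was at 7.96, 5.86 and 6.01 CPM in shNT and at 15.4, 19.8 and 13.3 CPM in shNT+OHT (log2 fold change 1.24). The libraries of this fit held only 12 to 49 counts of it. These values are a description only, since BOP1 passed the filter on low counts through its high group. The 26 factors and the 12 of 60S maturation counted as higher include it. The members of this complex differed in their calls, since PES1 rose by 0.77 (adjusted p = 0.00188) and WDR12 had a log2 fold change of 0.21 (standard error 0.24, adjusted p = 0.59). The rRNA methyltransferase NOP2 rose by 0.70 and the GTPase GNL3, nucleostemin, by 0.46, whereas BRIX1 had 0.35 (adjusted p = 0.0791). Of the 3 factors linked to transcription MYBBP1A rose by 0.70 (adjusted p = 0.0191) together with LYAR. The helicase DDX21 was at 772, 824 and 805 CPM in shNT and at 818, 1223 and 918 CPM in shNT+OHT (log2 fold change 0.29, adjusted p = 0.133).

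The number of calls changed with single libraries. Without shNT replicate 1, 2 or 3 the test called 16 factors each time, where 7.84, 6.69 and 8.26% of all genes were called. Without shNT+OHT replicate 3 it called 19 factors (10.9% of all genes), without replicate 2 it called 29 (23.3%) and without replicate 1 it called 35 (25.5%), in every case 0 of them lower. The counts of factors thus rose and fell with those over all genes. NPM1 (log2 fold change 0.42 to 0.43), DKC1 (0.44 to 0.56), GNL3 (0.43 to 0.49) and MYBBP1A (0.65 to 0.75) lost their calls without any single shNT library, while these values stayed near those of all 6 libraries. NPM1 (0.33) and DKC1 (0.40) also lost them without shNT+OHT replicate 3, and BOP1 (1.21) without shNT replicate 3. The adjusted p-values of these lost calls were 0.0533 to 0.141. Without shNT+OHT replicate 1, NOP58 (0.52, adjusted p = 0.0022), BRIX1 (0.48), HEATR1 (0.46) and DDX21 (0.41) gained calls.

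**Figure D2:**
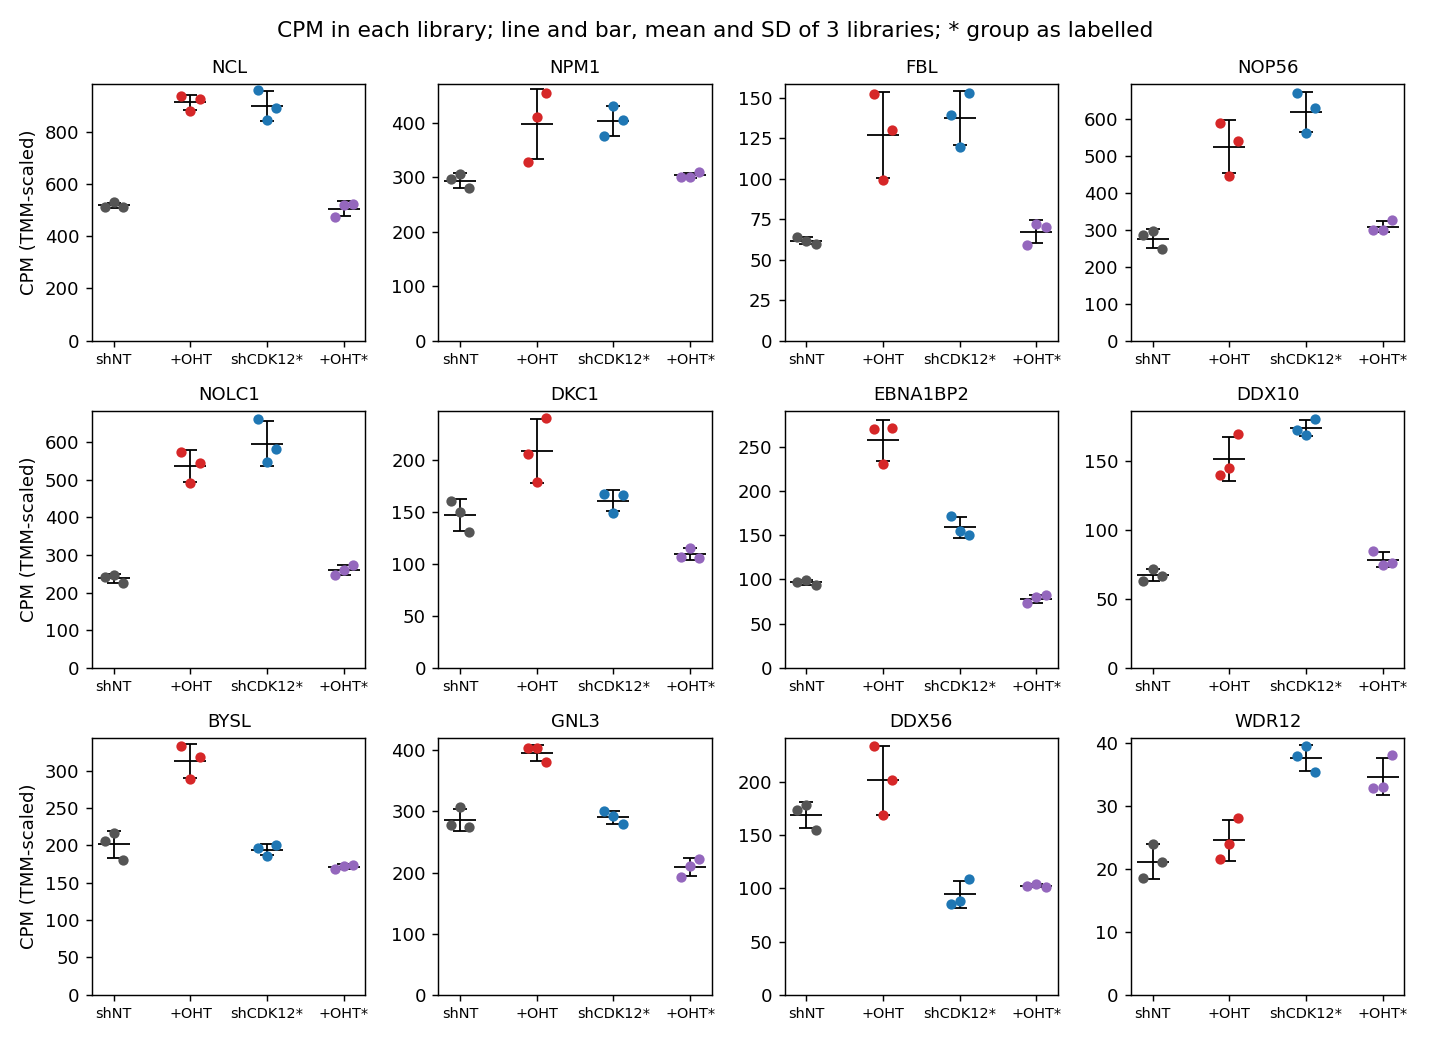
Each panel plots the CPM of 1 factor on an axis that starts at 0, with a point per library and a line and bar for the mean and SD of the 3 libraries of a group, and asterisks mark groups given as labelled. NCL, FBL, NOP56 and NOLC1 are high in shNT+OHT and in the shCDK12-labelled libraries, BYSL and GNL3 are high in shNT+OHT alone, and DDX56 is low in both groups labelled with shCDK12.

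With OHT the shCDK12-labelled libraries moved the other way. Of the 54 factors tested 45 fell and 0 rose, where 49.4% of all 12374 genes tested were called, 23.8% lower and 25.6% higher (edgeR, same test). The median log2 fold change was -0.54 against 0.01 over all genes. In 45 factors all 3 shCDK12+OHT-labelled libraries lay below all 3 labelled shCDK12, against 24.8% of all genes. By role, 6 of 6 box C/D and abundant proteins fell, 3 of 4 box H/ACA proteins, 11 of 14 SSU processome factors, 5 of 6 late 40S factors, 17 of 21 tested 60S factors and 3 of 3 factors linked to transcription. Those not called were DCAF13, DDX18, DDX27, DDX56, NAT10, NOP10, NOP9, UTP14A and WDR12.

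RRP1B, a 60S factor, was at 170, 160 and 158 CPM in the shCDK12-labelled libraries and at 71.9, 72.2 and 65.1 CPM in the shCDK12+OHT-labelled ones, a log2 fold change of -1.25 (standard error 0.087, adjusted p = 1.49e-09, edgeR). NOLC1 went from 662, 547 and 582 to 247, 261 and 272 CPM, a log2 fold change of -1.23 (standard error 0.083, adjusted p = 1.08e-09). DDX10 went from 172, 168 and 180 to 84.8, 74.5 and 75.8 CPM, a log2 fold change of -1.18 (standard error 0.087, adjusted p = 3.28e-09). In all 3 genes the groups did not overlap, which follows largely from their choice as the largest called falls. NOP56 fell by 1.04, FBL by 1.06, NCL by 0.87, NOP58 by 0.87 and NPM1 by 0.45 on the log2 scale, all with adjusted p-values of 5.86e-05 or less. The box H/ACA proteins DKC1 and GAR1 fell by 0.58 and 0.79. UTP20, which was not called in shNT, fell by 0.60 (adjusted p = 3.86e-05), as did HEATR1 by 0.39 and DDX21 by 0.61. WDR12 again had no call (log2 fold change -0.16, adjusted p = 0.288), unlike its partners BOP1 (-0.89, adjusted p = 0.00366) and PES1 (-0.41, adjusted p = 0.000597). BYSL had the smallest called change of those named, -0.21 (adjusted p = 0.0293), and lost its call without replicate 3 of the shCDK12-labelled libraries and without any single shCDK12+OHT-labelled library (-0.19 to -0.22, adjusted p = 0.0613 to 0.104). It also lost it with no filter on low counts (-0.18, adjusted p = 0.117), in 1 fit of all 12 libraries (-0.21, adjusted p = 0.0766) and after thinning to equal depth (-0.24, adjusted p = 0.0673).

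The OHT responses of both shRNA arms share no library and can be set side by side. Of the 54 factors 52 had a positive log2 fold change in shNT and a negative one in the shCDK12-labelled libraries (96.3%), against 33.4% of 9913 genes measured in both. Both signs were called in 26 factors (48.1%), against 7.24% of all genes. The sign of the second response rests on the labels of the shCDK12 arm. With that sign turned, as it would be if the labels shCDK12 and shCDK12+OHT were exchanged, these 52 factors would be positive in both arms, and so would the same 33.4% of all genes. This follows by arithmetic alone and does not bear on the labels. The turned response minus that in shNT had a median of 0.014 over the 54 factors, with a range of -0.49 to 0.56, and of -0.012 over all genes. These turned values were computed after the data were seen, and whether the labels are exchanged was not tested. NOP10 and DDX56, singled out after their values were seen, were the factors with a positive value in both arms, and for DDX56 these values were 0.26 (adjusted p = 0.202) and 0.09 (adjusted p = 0.462). Across the 54 factors the responses had a Pearson correlation of -0.72, against -0.62 across the 9913 genes, which is a description over genes that share the same 12 libraries. The difference between the responses was fitted over all 12 libraries. It was negative and past the threshold in 43 of the 54 factors and positive in 0, where 46% of all 11261 genes were called, 22.4% negative and 23.6% positive (edgeR, adjusted p under the threshold of 0.05), with a median of -0.98 against 0.03. The 43 include BOP1, which passed the filter on low counts through its high groups. EBNA1BP2 had the largest difference with -2.51 (standard error 0.15, adjusted p = 9.24e-11), followed by NOLC1 with -2.44 (standard error 0.14, adjusted p = 4.9e-11) and DDX10 with -2.39 (standard error 0.16, adjusted p = 3.27e-10). With the second response turned in sign, the differences of these 3 factors would be -0.36, 0.058 and 0.0068, so that their size rests on the labels as well. As labelled, WDR12 at -0.41 (adjusted p = 0.167) and NAT10 at -0.40 (adjusted p = 0.0627) were not called, and NAT10 gained a call without shNT+OHT replicate 1 (-0.43, adjusted p = 0.0392).

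**Figure D3:**
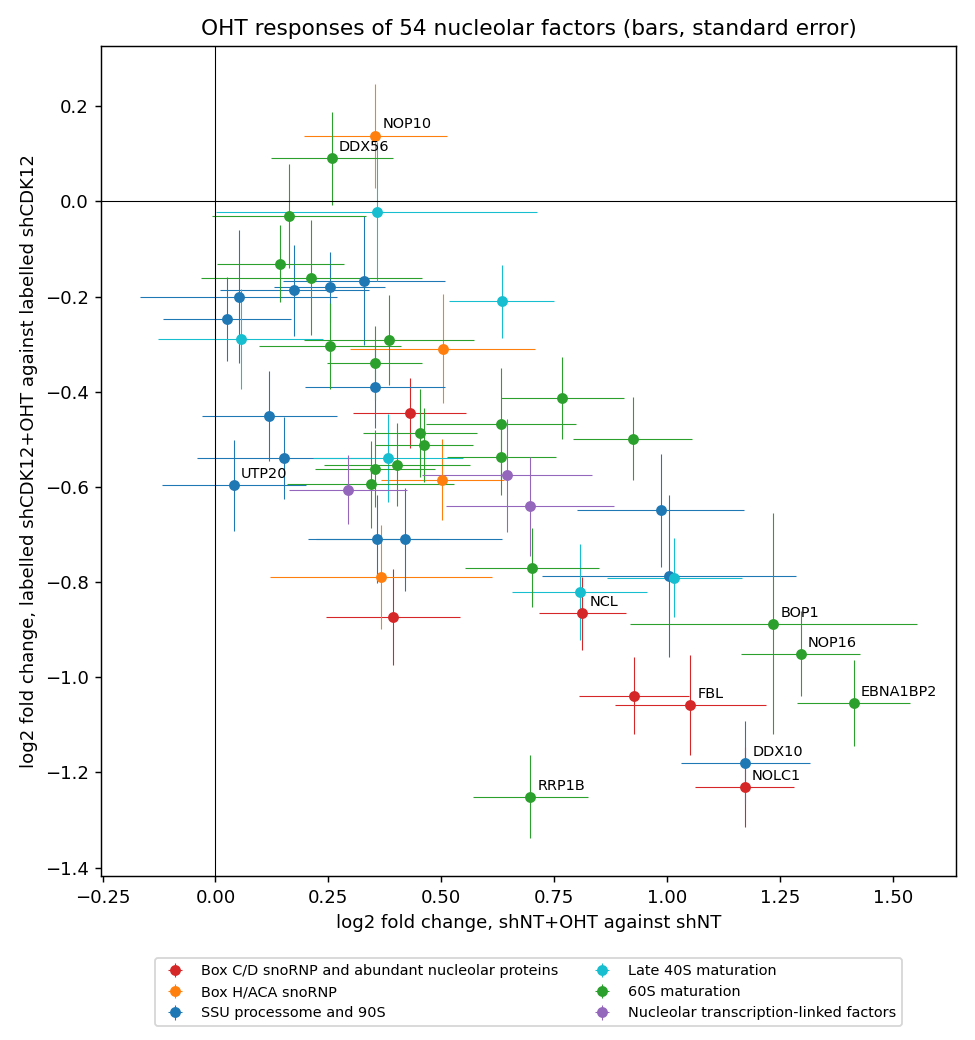
Each point is 1 of 54 factors, coloured by role, with the log2 fold change of shNT+OHT against shNT on the horizontal axis and that of the shCDK12+OHT-labelled against the shCDK12-labelled libraries on the vertical axis. Bars are standard errors, and 52 points lie in the quadrant of positive values in shNT and negative values in the shCDK12 arm.

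Without OHT, 41 of the 54 factors were higher in the shCDK12-labelled libraries than in shNT and 2 were lower, where 62.6% of all 11422 genes were called, 31.6% higher and 31% lower (edgeR's quasi-likelihood test, adjusted by Benjamini-Hochberg). CDK12 itself was not called in this comparison, as given above. The median log2 fold change was 0.49 against 0.01 over all genes, and in 37 factors the shCDK12-labelled libraries all lay above those of shNT, against 31% of all genes. The box C/D and abundant proteins were all higher (6 of 6), as were 3 of 4 box H/ACA proteins, 8 of 14 SSU processome factors, 4 of 6 late 40S factors, 17 of 21 tested 60S factors and 3 of 3 factors linked to transcription. This comparison and the OHT comparison in shNT share the 3 shNT libraries.

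DDX10 had 63.0, 71.6 and 66.2 CPM in shNT and 172, 168 and 180 CPM in the shCDK12-labelled libraries, a log2 fold change of 1.41 (standard error 0.10, adjusted p = 2.42e-12). NOLC1 differed by 1.36 (standard error 0.089, adjusted p = 2.87e-13) and NOP16, at 99.6, 107 and 91.7 against 213, 234 and 239 CPM, by 1.23 (standard error 0.094, adjusted p = 7.63e-12). These 3 genes had no overlap between the groups, which follows largely from their choice as the largest called rises. NOP56 (1.20), FBL (1.18), NCL (0.83), NOP58 (0.68) and NPM1 (0.49) were also higher. GAR1 stood at 20.6, 29.3 and 29.1 CPM in shNT and at 51.9, 59.0 and 62.5 CPM in the shCDK12-labelled libraries (log2 fold change 1.19, standard error 0.16, adjusted p = 2.68e-07), while DKC1 of the same particle had 0.15 (standard error 0.097, adjusted p = 0.167). Of the PeBoW members WDR12 was higher by 0.86 (adjusted p = 6.57e-05) and PES1 by 0.51 (adjusted p = 4.78e-05). BOP1 had a log2 fold change of 0.77 on only 12 to 95 counts per library. That value is a description only, since BOP1 passed the filter on low counts through its high group. The 41 factors and the 17 of 60S maturation counted as higher include it. HEATR1 (0.65), NAT10 (0.44), RRP12 (0.69), NOP2 (1.02), BRIX1 (0.58), EBNA1BP2 (0.75), DDX21 (0.40) and MYBBP1A (0.40) were higher too, and MYBBP1A was at 0.64 once every library was thinned to 1251695 counts. BYSL had a log2 fold change of -0.02 (standard error 0.089, adjusted p = 0.827) and GNL3 one of 0.05 (standard error 0.083, adjusted p = 0.589), and both groups overlapped.

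The 2 lower factors were the RNA helicases DDX56 and DDX27. DDX56 was at 174, 178 and 155 CPM in shNT and at 85.7, 87.8 and 109 CPM in the shCDK12-labelled libraries, a log2 fold change of -0.81 (standard error 0.10, adjusted p = 1.37e-07). DDX27 was at 88.1, 74.0 and 85.7 CPM and at 67.4, 54.9 and 60.3 CPM, with -0.41 (standard error 0.13, adjusted p = 0.00759). The call of BOP1 was lost without shNT replicate 2 (0.63, adjusted p = 0.1) and without replicate 1 of the shCDK12-labelled libraries (0.63, adjusted p = 0.0676). UTP20 was higher by a log2 fold change of 0.30 (adjusted p = 0.0304), but its call was lost without shNT replicate 1 or 2 and without replicate 2 of the shCDK12-labelled libraries, with 0.27 each time (adjusted p = 0.109, 0.112 and 0.0595), and with no filter on low counts (0.26, adjusted p = 0.0968). DKC1 gained a call without that same library (0.22, adjusted p = 0.0391).

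With OHT in both arms, 40 of the 55 factors were lower in the shCDK12+OHT-labelled libraries than in shNT+OHT and 1 was higher, where 46.3% of all 11082 genes were called, 22.9% lower and 23.3% higher (edgeR, same test). PPAN passed the filter on low counts in this comparison alone, through the shNT+OHT libraries that held its highest values. Without it 39 of 54 factors were lower, their median being -0.59 on the log2 scale and that of all genes 0.02, and in 38 of these 54 the groups did not overlap in this direction, against 26.6% of all genes. By role 6 of 6 box C/D and abundant proteins, 1 of 4 box H/ACA proteins (DKC1), 9 of 14 SSU processome factors, 5 of 6 late 40S factors, 15 of 21 factors of 60S maturation other than PPAN and 3 of 3 factors linked to transcription were lower. CDK12 was lower in the same comparison.

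EBNA1BP2 was at 270, 231 and 272 CPM in shNT+OHT and at 72.9, 79.8 and 81.8 CPM in the shCDK12+OHT-labelled libraries, a log2 fold change of -1.72 (standard error 0.12, adjusted p = 4.3e-06, edgeR). PPAN was at 13.8, 9.90 and 14.8 against 4.35, 4.09 and 3.81 CPM, which is a description only, since it passed the filter through its high group. RRP1B, at 196, 229 and 195 against 71.9, 72.2 and 65.1 CPM, had -1.56 (standard error 0.12, adjusted p = 1.02e-05). The groups of all 3 genes were apart, which follows largely from their choice as the largest called falls. NOLC1 (-1.05), FBL (-0.93), NCL (-0.85), NOP56 (-0.77) and NOP58 (-0.60) were lower, with NOP56 at -0.46 once trends in gene length and GC content were removed. BYSL and GNL3, which were not called without OHT, were lower, with log2 fold changes of -0.87 (adjusted p = 9.22e-05) and -0.92 (adjusted p = 6.14e-05), and so were RRP12 (-0.94), PES1 (-0.67), MYBBP1A (-0.94) and DKC1 (-0.94). BOP1 was at 15.4, 19.8 and 13.3 CPM in shNT+OHT against 7.06, 6.66 and 4.17 CPM (log2 fold change -1.36). This too is a description only, since BOP1 passed the filter through its high group, and the counts of lower factors include it. DDX56 and DDX27, named here after their values were seen, had log2 fold changes of -0.98 (adjusted p = 0.000199) and -0.62 (adjusted p = 0.0076), so they were lower in the shCDK12 arm with and without OHT.

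WDR12 was the factor that was higher, at 21.6, 23.9 and 28.1 CPM in shNT+OHT and 32.9, 33.1 and 38.1 CPM in the shCDK12+OHT-labelled libraries (log2 fold change 0.49, standard error 0.18, adjusted p = 0.0449). Its call was lost without shNT+OHT replicate 1 or 2, without any 1 of the shCDK12+OHT-labelled libraries (adjusted p = 0.0733 to 0.162) and in 5 of the 8 other settings, and with length and GC trends removed the value moved to 0.27. Not called were HEATR1 (-0.09, adjusted p = 0.615), which was lower and called with length and GC trends removed (-0.31, adjusted p = 0.0152), GAR1 (0.03, standard error 0.19, adjusted p = 0.919), NAT10 (0.08, adjusted p = 0.667) and BRIX1 (-0.34, adjusted p = 0.053). BRIX1 was called lower with DESeq2, upper-quartile scaling, edgeR's own filter, 1 fit of all 12 libraries, thinning, and length and GC trends removed. Its values there were -0.33 to -0.40 (adjusted p = 0.00086 to 0.047, DESeq2 or edgeR). The calls of NPM1 (-0.39), NOP2 (-0.45) and UTP20 (-0.34) were each lost without any 1 of the shCDK12+OHT-labelled libraries, at -0.36 to -0.39, -0.43 to -0.45 and -0.32 to -0.35 (adjusted p = 0.0664 to 0.185). Lost too were those of NPM1 (-0.29, adjusted p = 0.0961) and UTP20 (-0.31, adjusted p = 0.1) also without shNT+OHT replicate 3. DDX21 (-0.51) lost its call without replicate 1 of the shCDK12+OHT-labelled libraries (adjusted p = 0.0541). Without shNT+OHT replicate 1, NOP2 moved to -0.29 and BRIX1 gained a call (-0.47, adjusted p = 0.000294). NOP2 also lost its call with length and GC trends removed (-0.22, adjusted p = 0.0796) and after thinning (-0.36, adjusted p = 0.0584), and UTP20 with no filter on low counts (-0.33, adjusted p = 0.119).

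**Figure D4:**
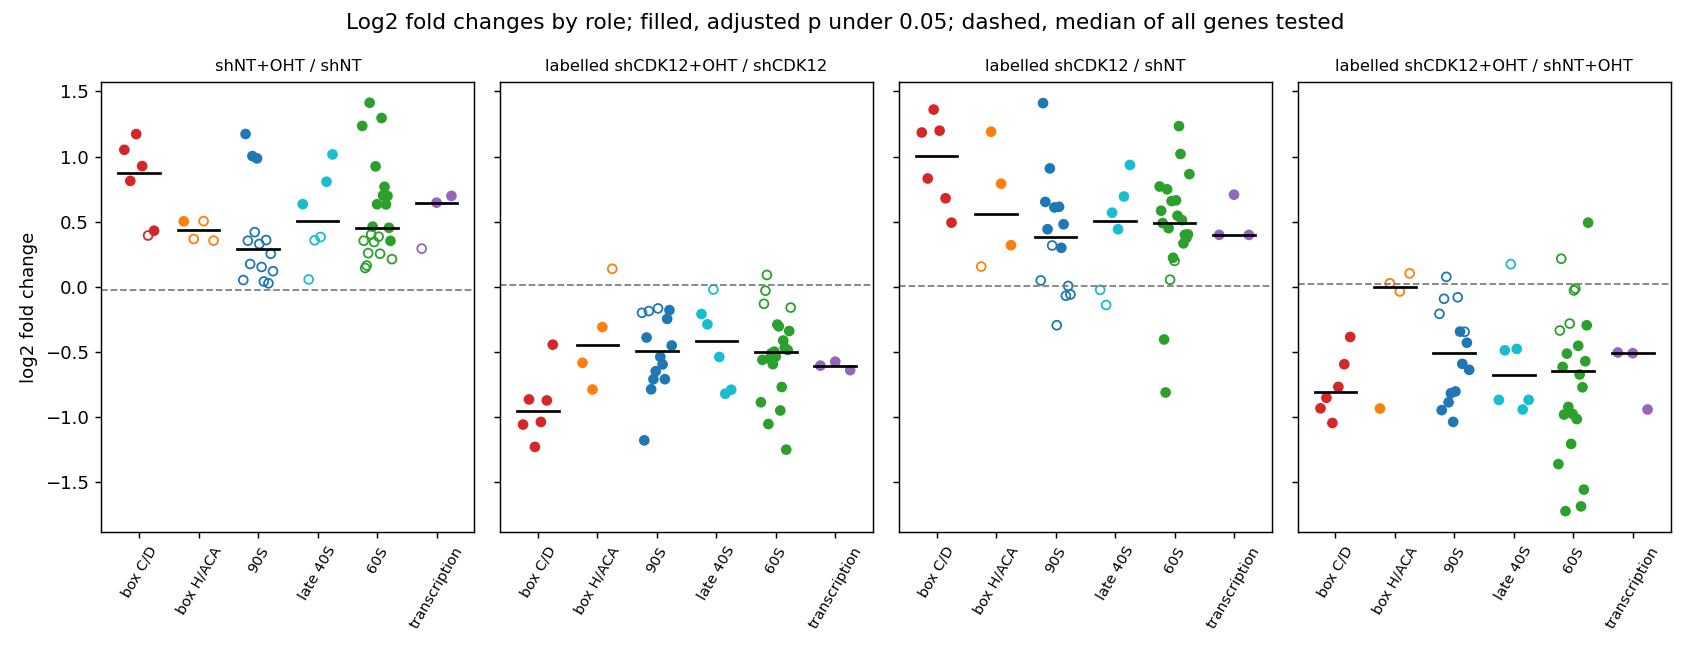
Each panel is 1 comparison, and each point gives the log2 fold change of 1 factor within its role, filled where the adjusted p was under 0.05. Black lines are role medians and the dashed line is the median of all genes tested, so that most points lie above the line in shNT+OHT against shNT and in labelled shCDK12 against shNT, and below it in the other panels.

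Other genes of ribosome production were counted in the same fits, and their counts stand against the shares of all genes in each comparison, which were 9.39% higher upon OHT in shNT and 23.8% lower upon OHT in the shCDK12-labelled libraries. RNA polymerase I machinery, which makes the pre-rRNA, had 10 of 20 genes higher and 0 lower upon OHT in shNT (median log2 fold change 0.47), and 15 lower and 0 higher upon OHT in the shCDK12-labelled libraries (median -0.45). The 82 other ribosome biogenesis factors had 30 higher and 0 lower in shNT (median 0.39) and 57 lower and 5 higher in the shCDK12-labelled libraries (median -0.37). The 78 cytosolic ribosomal proteins had 34 higher and 0 lower in shNT (median 0.39), and 36 lower and 1 higher in the shCDK12-labelled libraries (median -0.22). Of the pre-rRNA trimming exonucleases 2 of 14 tested were higher in shNT (14.3%, median 0.16) and 11 of 15 lower in the shCDK12-labelled libraries (median -0.31). Between the arms without OHT, where 31.6% of all genes were higher and 31% lower, the higher and lower counts were 12 and 3 for RNA polymerase I machinery, 45 and 7 for other biogenesis factors, 49 and 7 for ribosomal proteins and 4 and 1 of 15 for exonucleases (26.7% higher). With OHT, where 23.3% of all genes were higher and 22.9% lower, they were 0 and 10, 6 and 47, 5 and 39, and 1 and 7.

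Several factors share reads or positions with other genes. In the RefSeq annotation 18 of the 55 overlap another counted gene that is no small RNA, among them BYSL with MED20, GNL3 with GLT8D1, HEATR1 with LGALS8, NOP16 with ARL10, EBNA1BP2 with CFAP57 and PPAN with the readthrough gene PPAN-P2RY11. The kit keeps strand, and whether strand was used in counting is not given in the sources used here, so reads of such pairs may be split or shared. NPM1 also has processed pseudogenes of near-identical sequence. The genes NCL, NOP56, NOP58, DKC1, WDR43, TSR1, GNL3 and PPAN hold 26 small nucleolar RNAs within their spans. Of these 8 hosts, 7 were tested in shNT and 5 were higher with OHT (median log2 fold change 0.50), against 21 of 47 other factors (median 0.38) and 9.39% of all genes. In the shCDK12-labelled libraries all 7 fell with OHT (median -0.79), as did 38 of 47 others (median -0.54) and 23.8% of all genes. Between the arms without OHT 4 of 7 hosts were higher, against 37 of 47 others and 31.6% of all genes. With OHT 8 of 8 hosts, counting PPAN, were lower, against 32 of 47 others and 22.9% of all genes. The difference between hosts and other factors was not tested. Of the 6 factors with an E-box upstream, 1 was higher with OHT in shNT (EBNA1BP2), as were 9.39% of all genes, and 3 fell with OHT in the shCDK12-labelled libraries, as did 23.8%. Between the arms 5 of the 6 were higher without OHT, against 31.6% of all genes, and 4 were lower with OHT, against 22.9%. Over all factors tested, 26 of 54 were higher with OHT in shNT and 45 of 54 fell in the other arm. Between the arms 41 of 54 were higher without OHT, and 39 of 54 other than PPAN were lower with OHT. The difference between E-box factors and the others was not tested. The E-box factors' median was 0.34 in shNT and -0.39 in the other arm.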

How the data were processed

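The authors deposited 1 table of raw read counts per Entrez gene, not normalized, for 12 EU-seq libraries made with a stranded total RNA kit, and per the labels the reads were processed with STAR 2.7.5c, featureCounts 1.4.5-p1 and build hg19, the version of the annotation and the strand setting being not given in the sources used here. Gene symbols came from RefSeq for 23284 of 23434 rows, and the 150 others were kept. The tests used edgeR 4.0.16 under R 4.3.3 (TMM normalization, quasi-likelihood test, Benjamini-Hochberg adjustment over all genes tested, threshold 0.05) over genes whose normalized count averaged more than 32 across the fitted libraries. Each pair of groups was fitted on its own 6 libraries and the difference between OHT responses on all 12. CPM values are scaled by TMM, SDs are over 3 libraries, and standard errors were derived from the test's F statistic. Gene lengths and GC content came from GRCh38. No replicates were duplicates, since counts of libraries of a group differed by 2.69 to 9.31 times the sampling variance.

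The factors, the other gene lists and the tests were chosen with earlier results of these data known. Genes named with values are 22 factors spread over the roles, plus in each comparison the 3 with the largest called rise and the 3 with the largest called fall, CDK12 and MYC, while other factors are given by name and counts. The alternatives were a fit with DESeq2 1.42.0, scaling by upper quartiles, no filter or edgeR's own filter on low counts, a block for the replicate number, 1 fit of all 12 libraries, thinning to 1251695 counts, removal of trends in gene length and GC content, and leaving out each library in turn. Promoters came from RefSeq tables of GRCh38.p14, and gene coordinates of the counting build are not given.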

Additional observations from a re-analysis of the deposited data

Results flagged for a closer look

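The OHT response differed between the shNT arm and the shCDK12-labelled libraries in 23 of the named factors, by a test of the difference itself in a fit of all 12 libraries (edgeR's quasi-likelihood test, adjusted by Benjamini-Hochberg, all adjusted p-values at or below 0.00247). The named factors WDR12, NAT10, DDX56 and DDX27 were not called, and PPAN was not tested. Over all 11261 genes tested 46% were called, 22.4% negative and 23.6% positive. Of the called factors EBNA1BP2, NOP16, RRP1B and DDX10 had been named for large changes in these same data. Each value is the log2 fold change with OHT in the shCDK12-labelled libraries minus that in shNT. Among the 60S factors it was -2.51 for EBNA1BP2, -2.29 for NOP16, -2.16 for BOP1, -1.98 for RRP1B, -1.51 for NOP2, -1.22 for PES1, -1.01 for GNL3 and -0.94 for BRIX1. The value of BOP1 is a description only, since it passed the filter on low counts through its high groups, and the 23 include it. Among the box C/D and abundant nucleolar proteins it was -2.44 for NOLC1, -2.16 for FBL, -2.01 for NOP56, -1.72 for NCL, -1.30 for NOP58 and -0.91 for NPM1, and among the box H/ACA proteins -1.19 for GAR1 and -1.13 for DKC1. Among the factors of the small subunit it was -2.39 for DDX10, -1.67 for RRP12, -0.88 for BYSL, -0.77 for HEATR1 and -0.67 for UTP20. For the proteins linked to transcription it was -1.38 for MYBBP1A and -0.93 for DDX21. All 23 differences were negative, and each of these factors had a positive response in shNT and a negative response in the shCDK12-labelled libraries. In shNT the response of NOP58, GAR1, BRIX1, HEATR1, UTP20 and DDX21 was not called. The directions rest on labels that the nascent RNA of CDK12 did not fully follow, and what the labels stand for was not tested. With the sign of the second response turned, as under exchanged labels, both responses would be positive in all 23, which follows from the signs by arithmetic alone. The turned response minus that in shNT would lie between -0.42 (BYSL) and 0.56 (UTP20), as values without a test.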

How the results depend on the processing

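Counts of called factors kept within 1.5 times of the reported 26 (OHT in shNT), 45 (OHT in the shCDK12-labelled libraries), 43 (labelled shCDK12 against shNT), 41 (the same with OHT) and 43 (difference of responses) under every alternative, except for OHT in shNT without shNT replicate 1, 2 or 3. The ranges were 23 to 37, 34 to 45, 38 to 46, 33 to 44 and 39 to 46 under the other settings. There 10.9 to 29.0, 31.5 to 53.2, 39.6 to 64.1, 28.9 to 52.6 and 26.8 to 49.7% of all genes were called. When each library was left out, the ranges were 16 to 35, 39 to 45, 39 to 43, 30 to 46 and 43 to 47. The shares of all genes were then 6.69 to 25.5, 40.9 to 51.2, 55.9 to 61.3, 32.1 to 53.8 and 40.8 to 50.5%. The causes of these shifts were not tested. Under all alternatives 0 factors were lower with OHT in shNT, and 0 were higher with OHT in the shCDK12-labelled libraries. With no filter on low counts the median of all genes moved to 0.21 between the arms with OHT (0.02 as reported), where the factors' median was -0.58. At equal depth, thinned to 1251695 counts a library, 23 factors were called with OHT in shNT, where 16.5% of all genes were called.

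Libraries were treated as sharing only a replicate number, since not every same-numbered pair correlated over 0.1, a rule that is no test of pairing. The libraries' deviations correlated at -0.11 to 0.33 with the same number (median 0.030, over 0.1 in 3 of 18 pairs). With different numbers they correlated at -0.36 to 0.093 (median -0.013, over 0.1 in 0 of 36). Of 36 best correlations 23 were with the own number, a hint of pairing from the data, not the design. A fit with the replicate block called 26, 44, 45, 37 and 43 factors, where 17.2, 49.8, 64.0, 42.1 and 47.0% of all genes were called. In that fit WDR12 and UTP20 lost their calls between the arms with OHT.

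Of 128 gene results, 106 called as reported, 100 kept call and sign in all alternatives, 14 lost a call, 11 gained one and 5 changed sign, of which 0 were called. Those 5 are as follows. MYC with OHT in shNT ranged from -0.18 to 0.032 without single libraries, and was called at -0.28 (adjusted p = 0.00702) with length and GC trends removed. MYC between the arms with OHT ranged from -0.058 to 0.14, and was called at 0.39 (adjusted p = 0.000276) with the trends removed. BYSL between the arms without OHT was 0.011 with length and GC trends removed and ranged from -0.087 to 0.022 without single libraries. CDK12 there was 0.085 with the trends removed and ranged from -0.0997 to 0.012. GAR1 between the arms with OHT was -0.00058 with DESeq2, -0.0031 with edgeR's own filter and -0.059 after thinning, and ranged from -0.18 to 0.16 without single libraries. Depth limits BOP1 (12 to 95 counts) and PPAN (4 to 51 counts) most.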
